A study of Rattus norvegicus with 10 samples.

Results

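With farnesol, all 4 transcription factors of tendon fate that were examined fell. Scx was 1.65-fold, Mkx 1.38-fold, Egr1 1.52-fold and Egr2 1.94-fold lower, and for each of them every farnesol library lay below every control library. Over all genes tested 30.1% fell and 20.9% were without overlap in this direction. The Mkx call ended when either of 2 measures of a length-related difference between libraries was held constant, and the Egr2 call with 1 of them. Both measures also differed between the groups, 1 of them without overlap. Of the 4 tendon and sheath markers, Prg4 rose 1.79-fold from a low level, a call that ended with either measure. Thbs4 and Tppp3 did not pass the test, although Thbs4 was called lower with either measure. Tnmd had at most 1 count in any library. The 8 genes were picked by symbol from the 23051 genes of the table as a set of tendon transcription factors and markers. All 8 were found, and 7 passed the filter on low counts.

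RNA was sequenced from rat tendon-derived stem cells (TDSCs), progenitors that can form tendon as well as bone, after 3 days of osteogenic induction. The control group had 5 libraries of cells under induction alone, and the farnesol group had 5 libraries of cells under induction with 50 µM farnesol, an isoprenoid alcohol. No group without induction was analysed here, so the values compare farnesol with control among induced cells. The titles describe the controls as untreated while their library names read as a vehicle. Every title also numbers its library as a biological replicate. Which unit was replicated, the animal or the culture, is not given. The p-values measure the spread between these libraries, part of which may be technical.

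Scx encodes scleraxis, a basic helix-loop-helix (bHLH) protein that marks tendon progenitors and switches on tendon collagen genes and Tnmd, as shown in mouse. Mkx encodes Mohawk, a homeobox protein that mouse tendons need to build thick collagen fibrils. Egr1 and Egr2 are zinc finger factors of the immediate-early class, which answer quickly to growth factors and load, and in mouse both act upstream of tendon collagen genes. Tnmd (tenomodulin) is a membrane glycoprotein of mature tenocytes, Thbs4 a thrombospondin of the tendon matrix, Tppp3 a microtubule-binding protein that marks sheath and paratenon progenitors in mouse, and Prg4 encodes lubricin, which coats gliding surfaces.

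The promoters of Egr1 and Egr2 are shown because these related factors fell together and both can be switched on by serum response factor through CArG boxes. RefSeq windows were found for 6 of the 8 genes (all but Scx and Tppp3). The sequences below are the 250 bases before each start in build GRCr8, 5′ to 3′ along the gene, at chr18:26736828-26737077 on the plus strand for Egr1 and chr20:21054442-21054691 on the minus strand for Egr2. Capitals mark CArG boxes.
Egr1: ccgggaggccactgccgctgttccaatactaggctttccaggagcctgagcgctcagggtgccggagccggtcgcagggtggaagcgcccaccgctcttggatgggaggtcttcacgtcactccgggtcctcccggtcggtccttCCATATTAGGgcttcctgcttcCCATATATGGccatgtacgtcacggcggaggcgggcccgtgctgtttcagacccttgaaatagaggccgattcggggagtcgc
Egr2: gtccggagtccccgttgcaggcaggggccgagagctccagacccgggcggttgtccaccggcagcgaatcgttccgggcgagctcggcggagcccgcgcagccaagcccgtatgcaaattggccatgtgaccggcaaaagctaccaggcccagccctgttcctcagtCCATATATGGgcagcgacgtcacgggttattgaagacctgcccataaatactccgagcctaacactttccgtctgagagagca

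The Egr1 window held 2 CArG boxes and the Egr2 window 1. In both genes a box ran from 83 to 74 bases before the start, followed by ACGTCA, the core of a cyclic AMP response element, from 67 to 62 bases before it. Both strands were searched for the CArG box, ACGTCA and the EGR site GCGNGGGCG, which do not share letters in these windows. A CArG box was found in 501 (1.5%) of 33469 rat promoter windows of the same length, ACGTCA in 6.95% and the EGR site in 4.29%. A CArG box with ACGTCA 16 bases downstream, counted from the first base of the box to the first base of ACGTCA, stood in 3 windows, those of Egr1, Egr2 and Dusp5. That spacing was the one seen in Egr1 and Egr2, so their place among the 3 was fixed in advance. Of the other members with a window, Mkx, Thbs4, Prg4 and Tnmd held none of the 3 motifs, which says only that these letters are not in these windows.

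Levels were compared between genes per length, as the FPKM values that the authors deposited (fragment counts scaled by gene length and library size). In control, Thbs4 stood at 147 ± 4.59 FPKM (mean ± SD, n = 5), above 98.0% of the 17515 genes with any count, and Scx at 31.0 ± 3.84 FPKM, above 89.6%. Egr1 (7.60 ± 0.0709 FPKM) and Mkx (7.52 ± 0.602 FPKM) followed at like levels. Egr2 (0.643 ± 0.101 FPKM), Tppp3 (0.406 ± 0.173 FPKM) and Prg4 (0.202 ± 0.0473 FPKM) were low, and Tnmd was near 0. In this order the control libraries of Egr1 and Mkx overlapped, as did those of Egr2 and Tppp3 and those of Tppp3 and Prg4, whereas the other neighbours were apart in every library. With farnesol Thbs4 and Scx kept the upper places (140 ± 6.69 and 19.0 ± 3.49 FPKM), and Egr2 (0.335 ± 0.0584 FPKM) had a mean below those of Tppp3 (0.719 ± 0.395 FPKM) and Prg4 (0.366 ± 0.0829 FPKM), with overlapping libraries.

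**Figure D1:**
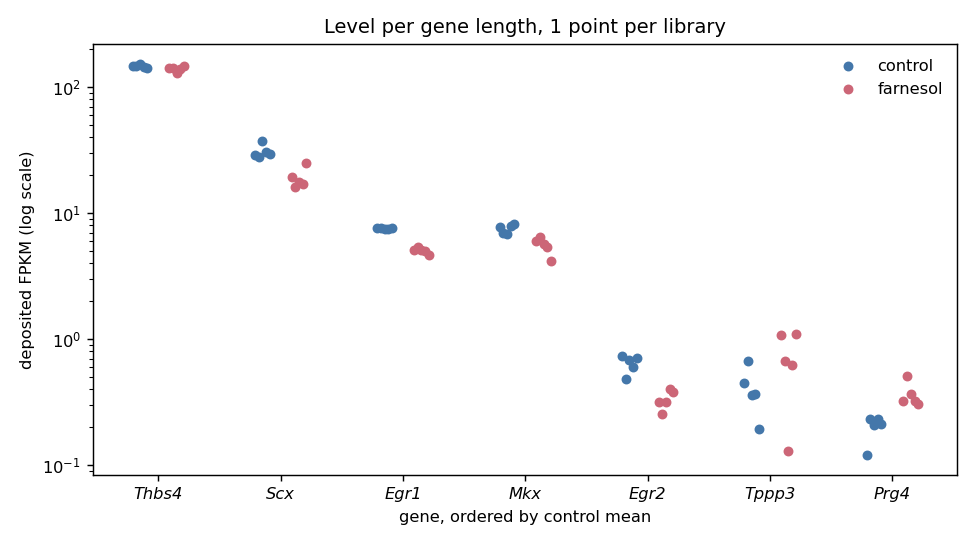
FPKM on a log scale for the 7 tested genes, 1 point per library, control in blue and farnesol in red; Tnmd, at 0 in most libraries, is left out. Thbs4 lies near 147 FPKM in control and Prg4 near 0.202 FPKM, and only Scx lies between Thbs4 and the pair Egr1 and Mkx.

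The tendon label was thus met in part. Thbs4 and Scx were clearly present, while Tnmd, the marker of mature tenocytes (chromosome X, 97057137 to 97072634 on the plus strand, build rn7 as named in the submitters' processing notes), had 1 count in control libraries 2 and 4 and in farnesol library 4 and 0 in the other 7. Such a 0 leaves room for 3 counts, which is 0.0637 to 0.0717 CPM (counts scaled by library size) depending on the library. Fibroblast markers summed to 31056 to 32847 CPM in control and 30921 to 34304 CPM in farnesol, and Lum was too low to test. Of 6 tested, 2 were lower (Col3a1 and Dcn) and none higher, where 30.1% of all genes fell and 29.4% rose. The defining markers Ptprc and Adgre1 (haematopoietic), Cdh5 (endothelial), Myf5 and Pax7 (muscle) and Sox10 (Schwann cells) were listed at 0 in all libraries, although other markers of these lists were detected and some moved, as given further on.

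Libraries held 41.8 to 47.1 M counts. Within the groups they also differed along 1 direction, called the library axis here, which took 36.8% of the within-group variance and ran with gene length, in that libraries far along it had relatively more counts on short genes. Farnesol libraries scored -0.074 to 59.9 on it and control libraries -40.3 to 4.06, so the axis and farnesol can be told apart only in part. In the quasi-likelihood test of edgeR, with p-values adjusted over 12893 genes by Benjamini-Hochberg, 59.5% of all genes changed (30.1% fell and 29.4% rose), and 20.9% were lower and 19.8% higher in every farnesol library than in every control library. Below, 5 of the 7 tested members changed (4 fell and 1 rose). Beside 59.5%, that share does not set the members apart.

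Scx (chromosome 7, 108176608 to 108178626, plus strand) measured 33.1, 31.7, 42.8, 35.1 and 34.0 CPM in control libraries 1 to 5. With farnesol it measured 21.6, 18.0, 19.6, 19.1 and 28.8 CPM. Control library 3 and farnesol library 5 were the highest of their groups, and the groups did not overlap. Scx fell from 35.3 ± 4.35 to 21.4 ± 4.34 CPM (SD, n = 5), by 0.72 on the log2 scale with an SE of 0.12 (adjusted p = 0.000471, edgeR). In bulk RNA, fewer cells that express a gene and less RNA per cell cannot be told apart. Scx lies inside Bop1, a ribosome biogenesis gene on the opposite strand (108172066 to 108195931). No source used here gives the strand setting of the counting, so whether some reads of 1 gene were counted for the other is not known. Bop1 moved the other way, from 22.9 ± 2.62 to 30.6 ± 5.17 CPM (log2 fold change 0.42, adjusted p = 0.00573, edgeR), and it too was highest in control library 3 (27.1 CPM) and farnesol library 5 (39.6 CPM).

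Mkx (chromosome 17, 55077540 to 55156124, minus strand) measured 25.6, 22.9, 22.5, 26.3 and 27.0 CPM in control libraries 1 to 5. In farnesol libraries it was at 19.6, 20.8, 18.3, 17.6 and 14.1 CPM. The groups did not overlap, but the gap between the lowest control and the highest farnesol library was small, and farnesol library 5 was the lowest of all. Mkx had the smallest log2 fold change of the 4 factors, -0.46 with an SE of 0.10 (adjusted p = 0.00183, edgeR). Holding the library axis constant ended that call (-0.21, adjusted p = 0.174), as did the length slope, the slope of each library's log2 ratios on gene length (-0.15, adjusted p = 0.644).

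Egr1 (chromosome 18, 26462981 to 26466766, plus strand), whose promoter is given above, was the most even of the set. Its control libraries lay at 24.1, 24.0, 23.6, 23.7 and 23.8 CPM, an SD of 0.219 around 23.8. Its farnesol libraries lay at 15.8, 16.7, 15.7, 15.5 and 14.7 CPM (15.7 ± 0.70). The 2 groups stood far apart for their spread, and Egr1 fell by 0.60 on the log2 scale with an SE of 0.060 (adjusted p = 9.19e-06, edgeR).

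Egr2 (chromosome 20, 21051277 to 21055562, minus strand) moved the same way at a much lower level. Control libraries 1 to 5 had 98, 65, 85, 79 and 99 counts, or 2.18, 1.44, 2.04, 1.80 and 2.12 CPM. Farnesol libraries had 42, 34, 44, 50 and 51 counts, or 0.925, 0.744, 0.927, 1.17 and 1.15 CPM. No farnesol library reached the lowest control library, control 2. The log2 fold change, -0.96, was the largest of the 4 factors, with an SE of 0.19 (adjusted p = 0.00104, edgeR). It was still called with the axis and not with the length slope (-1.07, adjusted p = 0.111).

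**Figure D2:**
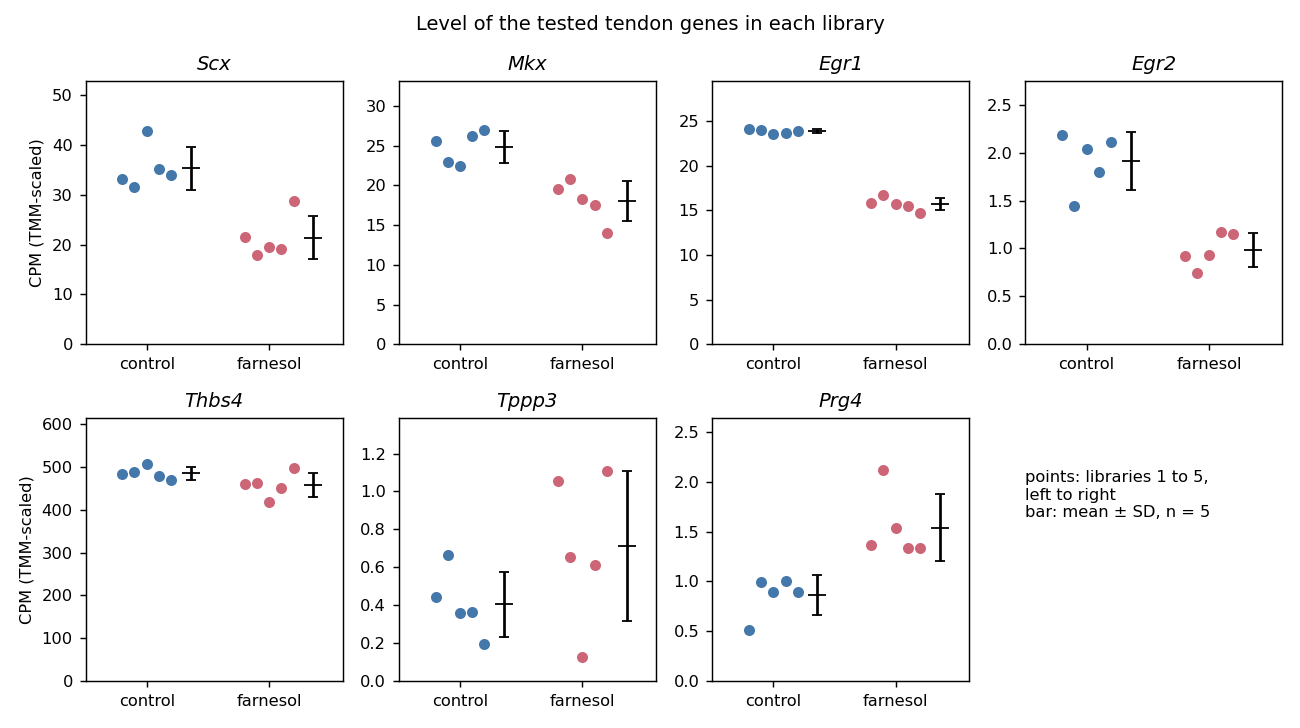
CPM of each tested gene in each library, control in blue and farnesol in red, with mean ± SD (n = 5) beside the points and axes from 0. Scx, Mkx, Egr1 and Egr2 are lower and Prg4 is higher with farnesol, with no overlap between groups, and Thbs4 and Tppp3 overlap.

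Thbs4 (chromosome 2, 23983158 to 24026313, minus strand) had 483, 487, 508, 478 and 469 CPM in control and 459, 463, 419, 450 and 497 CPM in farnesol. Farnesol library 5 lay among the controls, and library 3 was lowest. The log2 fold change was -0.084, with a 95% interval of -0.20 to 0.027, and did not pass (adjusted p = 0.175, edgeR). It did without farnesol library 5 (-0.11, adjusted p = 0.0475). Thbs4 also passed at -0.21 once the axis was a covariate (adjusted p = 0.000339, edgeR) and at -0.24 for the length slope (adjusted p = 0.0145).

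Tppp3 (chromosome 19, 33345898 to 33349577, minus strand) had 20, 30, 15, 16 and 9 counts in control and 48, 30, 6, 26 and 49 in farnesol. Farnesol libraries 1 and 5 were above every control and library 3 below every control, so the groups overlapped widely. Its log2 fold change was 0.81, with a 95% interval of -0.21 to 1.82, and did not pass (adjusted p = 0.155, edgeR), although it did without farnesol library 3 (1.08, adjusted p = 0.0201). The gene lies inside Lrrc36 on the opposite strand (33292074 to 33360141), which was lower with farnesol (0.516 ± 0.128 and 0.201 ± 0.0809 CPM; log2 fold change -1.35, adjusted p = 0.0056, edgeR).

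Prg4 (chromosome 13, 62487257 to 62504119, minus strand) had 23, 45, 37, 44 and 42 counts in control and 62, 97, 73, 57 and 59 in farnesol. Control library 1 was the lowest and farnesol library 2 the highest of all, and the groups did not overlap. Prg4 rose from 0.859 ± 0.201 to 1.54 ± 0.337 CPM, or by 0.84 on the log2 scale with an SE of 0.23 (adjusted p = 0.00658, edgeR). Its end meets the end of Tpr, a nuclear pore gene on the opposite strand (62424312 to 62487496) at a far higher level, which fell from 123 ± 12.0 to 92.7 ± 8.78 CPM (adjusted p = 0.000971, edgeR).

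The members were next set against each other inside each library, as log2 ratios of counts, in which library size cancels. All 21 pairs of the 7 tested genes were compared by a 2-sided exact permutation test over the 10 libraries, chosen after seeing the data, with Benjamini-Hochberg adjustment over the pairs (the smallest p that 5 against 5 can give is 0.00794). Among the 4 factors none of the 6 ratios passed over all 10 libraries (adjusted p 0.125 to 0.45). A difference in the size of their falls was thus not shown there. Without farnesol library 5 the log2 ratio of Scx to Mkx differed by -0.47 (exact permutation p = 0.00794 before adjustment over the pairs). For the other ratios among the factors that p was 0.0159 to 0.294. The ratio of Egr1 to Egr2 was 3.64 ± 0.246 in control and 4.00 ± 0.326 in farnesol on the log2 scale (exact permutation p = 0.0794, n = 5). Each factor fell relative to Thbs4 in these unadjusted ratios. The log2 ratio of Scx to Thbs4 went from -3.79 ± 0.14 to -4.44 ± 0.216 and that of Egr1 to Thbs4 from -4.35 ± 0.0496 to -4.86 ± 0.129 (exact permutation p = 0.00794 for each, adjusted 0.0208). For Mkx and Thbs4 the difference was -0.38 (exact permutation p = 0.0159, adjusted 0.037). With the axis as a covariate the log2 fold changes of Mkx and Thbs4 were both -0.21, and with the length slope -0.15 and -0.24, so the lower ratio of Mkx to Thbs4 was not seen in those fits. Against Prg4, each of the 4 factors and Thbs4 was relatively lower with farnesol (adjusted exact permutation p = 0.0208), and against Tppp3 none of them passed. That depended on farnesol library 3. Without it the exact permutation p against Tppp3, before adjustment over the pairs, was 0.0159 for each factor and 0.0238 for Thbs4.

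The factors differed in how they lay along the library axis. Scx was highest in control library 3 and farnesol library 5, which also scored highest on the axis within their groups, whereas Mkx was lowest in the same libraries. Egr1 ranged only from 23.6 to 24.1 CPM over control scores of -40.3 to 4.06. With the axis score as a covariate, the log2 fold change of Scx was -1.18 (adjusted p = 1.59e-12, edgeR) and that of Egr1 -0.53 (adjusted p = 2.34e-05), while Egr2 stayed called at -1.09 (adjusted p = 0.0173). Mkx was then at -0.21 and no longer called (adjusted p = 0.174), Thbs4 was called at -0.21 (adjusted p = 0.000339), and Prg4 kept its size at 0.87 with a wider SE of 0.37 and lost its call (adjusted p = 0.102). In that fit 4 members fell and 0 rose, beside 11.7% and 8.9% of all genes.

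With the length slope of each library as a covariate, which is nearly the same quantity as the axis, Scx was at -1.29 (adjusted p = 1.39e-08, edgeR), Egr1 at -0.52 (adjusted p = 0.00178) and Thbs4 at -0.24 (adjusted p = 0.0145). These 3 fell and no member rose, beside 4.55% and 3.02% of all genes. Mkx (-0.15, adjusted p = 0.644), Egr2 (-1.07, SE 0.39, adjusted p = 0.111) and Prg4 (0.74, SE 0.46, adjusted p = 0.439) were not called. After a smooth trend on gene length was taken out of every library, the 4 factors and Prg4 kept their direction and call. Thbs4 was then at 0.0048 (adjusted p = 0.948, edgeR). In that fit 24.5% of all genes fell and 32.1% rose. Scx and Egr1 were thus called in each of the 4 fits. The Mkx value came nearer to 0 with both covariates, whereas Egr2 and Prg4 kept most of their size with wider SEs.

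**Figure D3:**
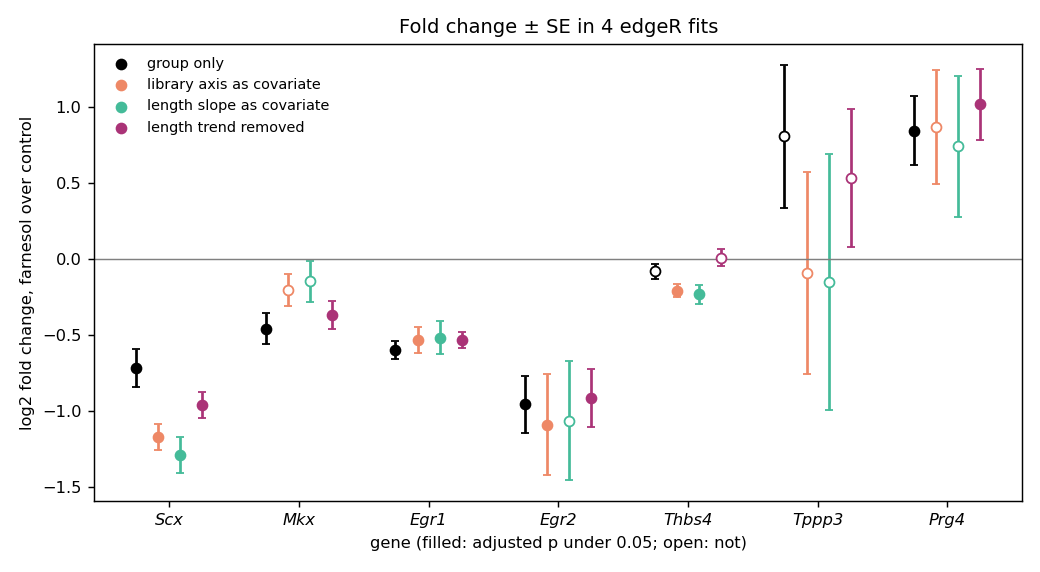
Log2 fold change of farnesol over control ± SE for each tested gene in 4 edgeR fits, filled where the adjusted p is under 0.05. Scx is further below 0 with the covariates (-1.18 and -1.29 against -0.72), Egr1 hardly moves, and Mkx comes closer to 0.

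**Figure D4:**
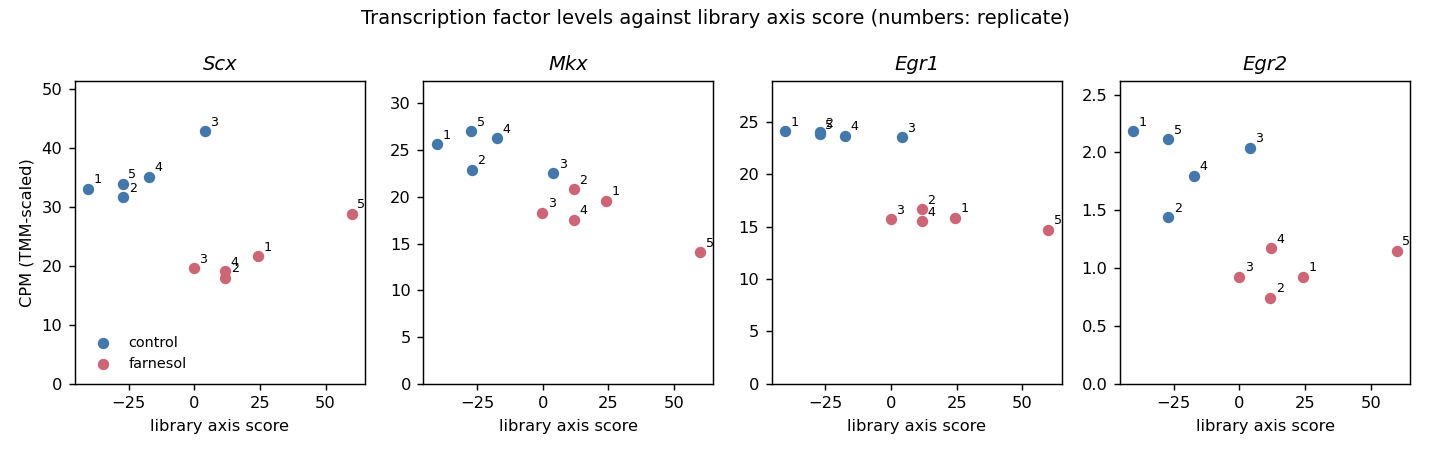
CPM of the 4 factors against the library axis score, 1 point per library with its replicate number, control in blue and farnesol in red. Control library 3 and farnesol library 3 have close scores (4.06 and -0.074), and there Scx is 42.8 and 19.6 CPM and Mkx 22.5 and 18.3 CPM.

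Signals upstream of the tendon factors moved in both directions. Of 18 listed genes 15 were tested, 8 fell and 2 rose, beside 30.1% and 29.4% of all genes, with a median of -0.22 on the log2 scale, beside 0.01 over all genes tested. Tgfb2 and Tgfb3, ligands that induce Scx in mouse limbs, fell from 413 ± 25.5 to 242 ± 10.9 CPM and from 3552 ± 75.8 to 2478 ± 109.7 CPM, and both passed in the 4 fits. Their receptor Tgfbr1 fell by 0.81 on the log2 scale, and Smad3, which carries the signal to the nucleus, from 24.0 ± 5.42 to 12.0 ± 3.62 CPM. Both calls ended with the length slope, and that of Smad3 also with the axis. Gdf6, a ligand of the growth and differentiation factor group, fell by 1.58 on the log2 scale at under 1 CPM, a call lost without control library 1 or 5 and with either covariate. Tgfb1 rose by 0.62 and Nfatc4 by 0.46 on the log2 scale. With the axis Tgfb1 was still called at 0.18 and Nfatc4 was not called (0.058, adjusted p = 0.589, edgeR), and neither was called with the length slope. Gtf2ird1, which in mouse answers to load and switches on Mkx, was 22.0 ± 0.986 and 23.9 ± 2.08 CPM and did not pass. With the axis and the length slope, 3 and 2 of the list fell (11.7% and 4.55% of all genes) and 2 and 0 rose (8.9% and 3.02% of all genes). Once the length trend was removed 5 fell and 5 rose (24.5% and 32.1% of all genes).

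Scx works as a dimer with E proteins, and Id proteins, which lack a DNA-binding region, take such partners away. All 9 listed genes were tested, of which 3 fell and 4 rose (median log2 fold change 0.17), where 30.1% and 29.4% of all genes did. Tcf12, which encodes the E protein HEB, fell from 16.5 ± 6.18 to 6.27 ± 1.91 CPM, a call that ended with either covariate, and Tcf4 fell by 0.25 on the log2 scale but was not called with either covariate or with the length trend removed. The Id genes went apart. Id1 rose from 34.9 ± 3.77 to 62.1 ± 5.26 CPM and Id4 fell from 52.4 ± 0.912 to 25.6 ± 2.35 CPM, and both passed in the 4 fits. Id3 rose by 0.30, Twist1 by 0.23 and Twist2 by 0.48 on the log2 scale, of which Twist2 alone was still called with the axis and none with the length slope, and Id3 was also not called with the length trend removed. Twist1 lost its call without control library 1 or 2 or farnesol library 1.

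Around Egr1 and Egr2, 8 of 10 listed genes were tested, of which 4 fell and 2 rose (median log2 fold change -0.12). The shares over all genes were 30.1% and 29.4%. Egr3 and Egr4 had at most 26 and 1 counts and were not tested. Nab1 and Nab2, which bind EGR proteins and hold them back, moved in opposite directions. Nab1 fell from 91.2 ± 10.6 to 60.3 ± 9.87 CPM, and Nab2 rose from 31.2 ± 2.54 to 41.4 ± 2.62 CPM; Nab2 was still called with the axis, and neither with the length slope. Srf, which binds the CArG boxes shown above, fell by 0.18 on the log2 scale, a call that was lost without farnesol library 4 and with the length trend removed. Its partners moved apart, as Mrtfb fell from 4.44 ± 1.76 to 1.12 ± 0.369 CPM and Mrtfa rose by 0.26 on the log2 scale. The Mrtfb call ended with the length slope, and that of Mrtfa with either covariate and without control library 1, 2 or 5. Elk3 fell by 0.12 on the log2 scale, and its call was lost without any 1 of 8 libraries, with the length slope and with the trend removed. With the trend removed 2 of the list fell and 4 rose (24.5% and 32.1% of all genes). The list median was then 0.17, beside 0.06 over all genes.

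Of 20 other immediate-early genes tested 11 fell and 1 rose (median log2 fold change -0.21), against 30.1% and 29.4% of all genes. Nr4a3, an orphan nuclear receptor, fell from 2.91 ± 0.276 to 1.23 ± 0.323 CPM, Fosl2 by 1.18 and Nr4a1 by 0.73 on the log2 scale. Fosb and Fos, partners in AP-1, fell by 1.15 and 1.10. With the axis as a covariate 10 fell (11.7% of all genes), and with the length slope 4 (4.55% of all genes), among them Fosb and Nr4a1. Fosl1 rose by 0.30, which ended with either covariate and without any 1 of 5 libraries. Of 12 such genes with a promoter window, Klf6 and Zfp36 held a CArG box. Klf6 fell and Zfp36 did not pass, and of the 10 without a box 5 fell, beside 30.1% of all genes.

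Among tendon matrix genes, 13 of 15 listed were tested, of which 8 fell and 1 rose (median log2 fold change -0.28), set against 30.1% and 29.4% of all genes. Tnc, tenascin C, had the largest fall at 1.28 on the log2 scale, followed by Aspn at 1.17, Col12a1 at 0.88, Dcn at 0.60 and Col5a2 at 0.38. Of these, Tnc and Col5a2 passed in the 4 fits. Bgn, biglycan, rose by 0.31, which was not called with the length slope. Col1a1, the main collagen of tendon and bone and a target of Scx, Mkx and Egr1 in mouse, was 15023 ± 472 CPM without and 15729 ± 687 CPM with farnesol and did not pass, although it did with the length trend removed (0.34, adjusted p = 0.0017, edgeR). With the axis 7 fell (11.7% of all genes) and with the length slope 2 (4.55% of all genes). Once the trend was removed 5 fell and 4 rose (24.5% and 32.1% of all genes).

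Near Thbs4, 2 of 4 further thrombospondins fell and none rose, beside the same shares of all genes. Thbs1, which can release TGF-beta from its latent form, fell from 13129 ± 1582 to 6989.6 ± 1035 CPM and passed in the 4 fits, and Thbs2 fell by 0.20 on the log2 scale, a call that ended with either covariate and with the trend removed. Thbs3 and Comp did not pass. Tppp and Tppp2, relatives of Tppp3, had at most 4 counts and were not tested. Beside Prg4, of 14 genes of synovial lining and tendon sheath 11 were tested, 5 fell and 2 rose (median log2 fold change -0.13), while 30.1% of all genes fell and 29.4% rose. Has2, which makes hyaluronan, fell by 1.55 and Cd55 by 0.72 on the log2 scale, and Pdpn, podoplanin, rose by 0.72. Cd55 and Pdpn passed in the 4 fits, and Has2 in all but that with the length slope. Foxo1, which in mouse cartilage acts upstream of Prg4, fell by 1.48 on the log2 scale while Prg4 rose, and its call ended with either covariate. Cd248 rose by 0.43, a call that ended with either covariate. With the trend removed 5 of this list fell and 4 rose (24.5% and 32.1% of all genes). The median was then 0.16, beside 0.06 over all genes.

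**Figure D5:**
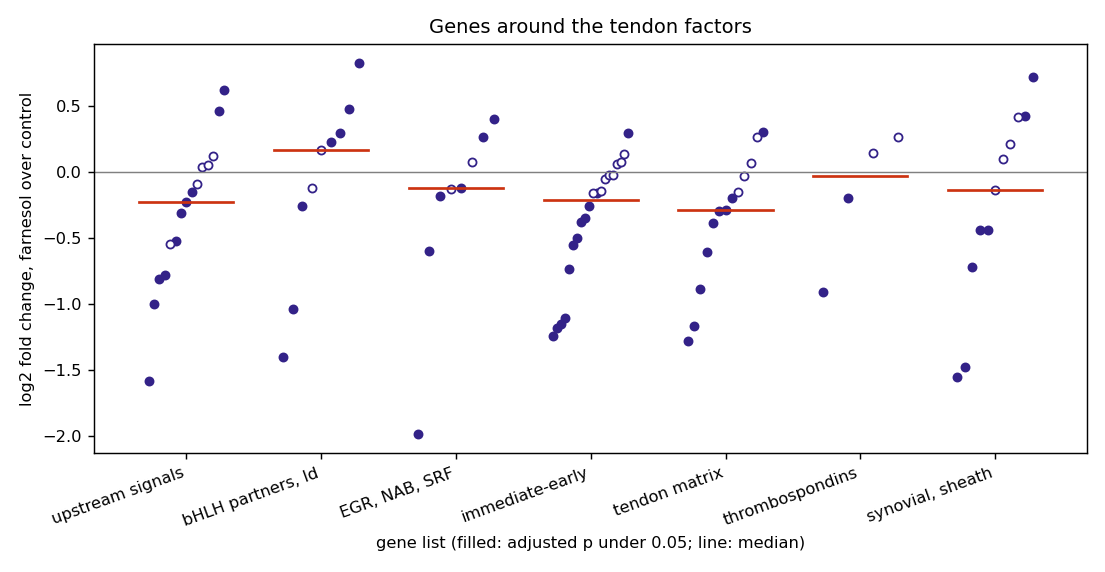
Log2 fold change of each tested gene of the 7 lists with tested members, filled where the adjusted p is under 0.05, with the list median as a line. Immediate-early and tendon matrix genes lie mostly below 0 (medians -0.21 and -0.28), whereas the bHLH partners have a median of 0.17.

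Markers of other cell types moved beside the tendon factors. The shares to set beside each count below are 30.1% lower and 29.4% higher over all genes tested. Smooth muscle and mural markers summed to 12412 to 14177 CPM in control and 8210 to 10712 CPM in farnesol, and none was at 0. Of 8 tested 6 were lower and none higher. Among the 6, Tagln stayed called in 3 of the 10 fits with 1 library left out. Osteoblast markers went from 29.7 to 35.8 CPM in control to 20.1 to 27.7 CPM in farnesol, with 3 of 4 tested lower. These were Ibsp, Alpl and Runx2, of which Ibsp alone passed in the 4 fits. The Alpl call was also lost without control library 3 or 4 or farnesol library 1 or 2. Cartilage markers went from 27.0 to 31.2 CPM to 15.8 to 19.4 CPM, with 1 of 5 tested lower, 1 higher and Col9a1 at 0. The lower one was Acan (log2 fold change -2.03), which passed in the 4 fits. The higher one was Sox9 (0.53), a call that ended with either covariate. Schwann and neural markers, of interest for Egr2 because it also drives myelination, went up from 290 to 346 CPM to 444 to 523 CPM, most of it S100b (311 ± 19.7 and 477 ± 28.4 CPM), with 2 of 4 tested higher (S100b and Tubb3) and Sox10 at 0. S100b passed in the 4 fits. The Tubb3 call ended with either covariate, with the trend removed and without control library 2 or 5. Haematopoietic markers summed to 1.27 to 2.48 CPM and 3.26 to 4.11 CPM, with 1 of 2 tested higher (Cd68, from 1.52 ± 0.54 to 3.05 ± 0.357 CPM). The Cd68 call ended with the length slope (adjusted p = 0.194, edgeR). Adipocyte markers summed to 13.7 to 17.9 CPM and 16.5 to 20.2 CPM, with 1 of 3 tested higher and 2 lower. Endothelial markers summed to 0.480 to 0.912 CPM and 0.109 to 0.822 CPM, with the 1 tested lower (Tek, from 0.551 ± 0.186 to 0.211 ± 0.163 CPM). The Tek call ended with either covariate and without control library 1 or farnesol library 1. Skeletal muscle markers summed to 1.89 to 2.98 CPM and 1.35 to 3.07 CPM, with the 1 tested not passing. The part of these differences in the changes of the tendon factors was not tested.

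Last, the genes whose pattern over the 10 libraries was most like that of each member were looked up, by the root mean square difference of log2 CPM around each gene's mean. Nearest to Scx were Septin4 (0.117), Arc (0.119) and Krt7 (0.140), nearest to Mkx were Isg20l2 (0.050), Rmi1 (0.0724) and Gdap2 (0.0812), and nearest to Egr1 were Tsc22d1 (0.0400), Ppip5k1 (0.0511) and Loxl2 (0.0512). Egr2, with its low counts, had no neighbour as close, and the nearest was Afap1l2 (0.173). Thbs4 was nearest to Pdgfrl (0.0286) and Pdgfrb (0.0293), Prg4 to Rps25l3 (0.206) and Tppp3 to Mei1 (0.415). These distances include the difference between the groups, so they are a description of 10 libraries.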

How the data were processed

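Bulk RNA-seq of 10 rat libraries was used, 5 per group, grouped by their titles. The authors deposited 1 table holding, per the file headers, a raw read count and an FPKM value for each gene and library. The submitters' processing notes list build rn7 and, without their roles, StringTie, HTSeq 0.9.1, HISAT2 2.0.5 and DESeq. If reads on overlapping genes were dropped or shared, Scx, Tppp3 and Prg4 could be affected. Of 23052 rows 1 repeat was removed. Library totals were 41.8 to 47.1 M counts, and the limit given for a 0 covers only the error of counting.

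The test was edgeR 4.0.16 under R 4.3.3 (filterByExpr, TMM, robust quasi-likelihood) with farnesol against control as its single factor and p-values adjusted by Benjamini-Hochberg over 12893 genes, called at 0.05. SE is the log2 fold change over the square root of F, and CPM uses TMM-scaled sizes. Ratios between members used a pseudocount of 0.5 counts. For the library axis, log2 CPM (prior count 2) was centred within groups and its leading principal component taken as the direction. Libraries were then scored along it after centring over all 10 libraries. The scores thus also hold the difference between the groups along that direction (means -21.6 in control and 21.6 in farnesol). Regressing a library's log2 ratios on log2 gene length, itself derived from counts and FPKM, gave its length slope. Alternatives were other size factors, no filter, DESeq2 1.42.0, limma 3.58.1 on log2(FPKM + 0.1) and log2(FPKM + 1), the replicate number as a block, both covariates, a length trend (5 degrees of freedom) removed, and each library left out. Promoters came from RefSeq's GRCr8 table, 250 bases before each start.

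The members, lists and tests were chosen with earlier results of these data known. Named genes are the members, up to 5 genes per list and direction by size among those that passed, list members named with values, and the genes most like each member. Junb and Dusp1 of the fixed lists were not analysed here. The steps were tested on simulated counts, and 20 pairs of replicates differed beyond sampling noise (chi-square per gene 3.93 to 106).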

Additional observations from a re-analysis of the deposited data

Results flagged for a closer look

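Among 104 groups of 5 libraries checked for a single library far from its group, 9 were flagged, where chance flags about 1 in 20. Prg4 was flagged in both groups, as control library 1 (0.512 CPM, the next at 0.888) was low and farnesol library 2 (2.12 CPM, the next at 1.54) was high. Without either library Prg4 stayed called (log2 fold change 0.70 in each case, highest adjusted p = 0.0213, edgeR).

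Farnesol library 5 stood high for Bop1, which overlaps Scx (39.6 CPM, the next at 29.8), for Id3 (337 CPM, the next at 276) and for Thbs3 (43.7 CPM, the next at 35.1). It also has the highest library axis score, 59.9, and the part of the axis in these values was not tested. Further single libraries were control 3 for Nfatc4 (63.4 CPM, the next at 55.2), control 2 for Nr4a3 (3.39 CPM, the next at 2.86), farnesol 4 for Fosb (2.33 CPM, the next at 1.84) and control 5 for Dcn (24.1 CPM, the next at 23.0).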

How the results depend on the processing

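Scx and Egr1 kept their direction and call under each alternative run. With the library axis as a covariate the count of changed genes went from 7671 to 2656 (1148 rose and 1508 fell) and with the length slope to 976 (389 and 587), and 0 members rose in either fit. With the axis, Mkx was at -0.21 and Prg4 at 0.87, both no longer called, and Thbs4 at -0.21, now called. With the length slope, Mkx was at -0.15, Egr2 at -1.07 and Prg4 at 0.74, all no longer called, and Thbs4 at -0.24, now called. The cause of these shifts was not tested. With each library left out, log2 fold changes ran from -0.85 to -0.65 for Scx, -0.52 to -0.38 for Mkx, -0.62 to -0.57 for Egr1, -1.05 to -0.87 for Egr2, -0.11 to -0.054 for Thbs4, 0.60 to 1.08 for Tppp3 and 0.70 to 0.91 for Prg4. The members that rose were 1 to 2 and those that fell 4 to 5, with Thbs4 called only without farnesol replicate 5 and Tppp3 only without farnesol replicate 3. The count of changed genes ran from 6880 to 7904 (3337 to 3906 rose, 3539 to 3998 fell).

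With the replicate number as a block, 6409 genes changed, and the log2 fold changes were -0.73 for Scx, -0.47 for Mkx, -0.60 for Egr1, -0.96 for Egr2 and 0.85 for Prg4, all still called. Same-numbered libraries did not deviate together (correlations -0.40 to 0.05 over genes), so the numbers were not taken as pairs. With the block the EGR list had 2 lower and 1 higher instead of 4 and 2, and no immediate-early gene was higher. Over all genes 25.8% were lower and 23.9% higher in that fit, instead of 30.1% and 29.4%. Low counts limit Egr2, Tppp3 and Prg4 most, and Tnmd could not be tested.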
